A study of Mus musculus with 10 samples.

Results

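Chromatin accessibility was examined at the genes of the autophagy machinery, 34 genes chosen for their known roles in building an autophagosome. They are Ulk1, Ulk2, Atg13, Atg101 and Rb1cc1 of the initiating kinase complex, Atg2a, Atg2b, Atg9a, Vmp1, Wipi1, Wipi2 and Wdr45 of membrane supply and lipid binding, and Atg3, Atg4a, Atg4b, Atg4c, Atg4d, Atg5, Atg7, Atg10, Atg12, Atg16l1 and Atg16l2 of the conjugation systems. The others are the ATG8 family genes Map1lc3a, Map1lc3b, Gabarap, Gabarapl1 and Gabarapl2, the cargo receptor genes Sqstm1, Optn, Nbr1 and Tax1bp1, the initiation regulator Ambra1 and the tether Epg5. A peak of accessible chromatin was counted as belonging to a gene when it lay in the gene body or within 10 kb of it on GRCm38, which gave 234 of the 97385 peaks in the data. Of these, 59 lay within 1 kb of an annotated transcript start and are called promoter peaks, and 175 lay elsewhere. All 34 genes had at least 1 promoter peak, and all 234 peaks passed the filter on low counts, as did 97109 peaks in all.

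The libraries were made by ATAC-seq, in which a transposase inserts sequencing adapters into accessible DNA, from sort-purified CD4+Foxp3-YFP+TCRb+ regulatory T cells (Tregs) of 10-day-old mice. The deficient mice were Foxp3CrePik3c3fl/fl and so lacked Vps34, the lipid kinase encoded by Pik3c3, in cells that express Foxp3. Control Tregs came from mice that also carried Foxp3Cre, with either no floxed Pik3c3 allele (+/+) or a single one (+/fl). There were 2 control and 4 Vps34-deficient libraries from spleen and 2 control and 2 Vps34-deficient libraries from lung. Nothing in the labels says whether replicates are separate animals, so the p-values given here measure the spread between these libraries. Accessibility is given as CPM, the count in a peak relative to the total of its library after scaling between libraries, and because the cells were profiled in bulk, fewer cells of one state and less signal per cell cannot be told apart.

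Autophagy wraps cytoplasm in a double membrane and delivers it to the lysosome. The ULK1 kinase complex starts the process, the Vps34 complex with Atg14 marks the growing membrane with phosphatidylinositol 3-phosphate, and WIPI proteins bind that lipid and recruit the enzymes that attach ATG8 family proteins to the membrane, where cargo receptors bring the material to be enclosed. Vps34 therefore acts between the initiating and the conjugating genes examined here, and autophagy genes are known to be needed for Treg survival and lineage stability.

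The sequences under 3 of the peaks on which the results turn are shown first, because 2 of them hold a match to the AP-1 motif described later. They are the + strand of GRCm38 from RefSeq, with any match to TGANTCA on either strand in capitals, and a match is a description of the sequence and not a site shown to be bound. The Sqstm1 window is chr11:50213018-50213317, upstream of the gene, the Atg7 window is chr6:114656918-114657217 in an intron near an internal transcript start, and the Atg10 window is chr13:91091621-91091920 in an intron and holds no match.
Sqstm1: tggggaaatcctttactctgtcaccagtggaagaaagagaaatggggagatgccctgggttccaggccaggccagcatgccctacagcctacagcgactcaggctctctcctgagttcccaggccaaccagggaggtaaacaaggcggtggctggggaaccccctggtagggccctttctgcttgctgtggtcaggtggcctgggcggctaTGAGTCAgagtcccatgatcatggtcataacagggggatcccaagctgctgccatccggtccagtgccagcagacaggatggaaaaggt
Atg7: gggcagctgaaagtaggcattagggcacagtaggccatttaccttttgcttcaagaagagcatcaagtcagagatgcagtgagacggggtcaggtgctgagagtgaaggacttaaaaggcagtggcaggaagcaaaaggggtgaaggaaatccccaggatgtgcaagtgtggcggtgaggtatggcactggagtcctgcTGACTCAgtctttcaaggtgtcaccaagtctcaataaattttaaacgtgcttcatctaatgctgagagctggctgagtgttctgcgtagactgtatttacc
Atg10: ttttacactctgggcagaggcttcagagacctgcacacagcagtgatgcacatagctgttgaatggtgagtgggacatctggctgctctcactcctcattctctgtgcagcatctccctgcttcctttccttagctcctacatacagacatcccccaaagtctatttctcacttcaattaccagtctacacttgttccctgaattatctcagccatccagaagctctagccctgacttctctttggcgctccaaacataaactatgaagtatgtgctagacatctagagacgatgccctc

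Total counts in peaks ranged from 9405823 to 22439699 per library, and the biological coefficient of variation of replicates was 17.8%. The promoter peak of the targeted gene Pik3c3 on chromosome 18 (30272595-30273114) measured 60.0 and 60.6 CPM in spleen control libraries, 66.8, 65.2, 61.1 and 63.6 CPM in spleen Vps34-deficient libraries, 53.9 and 59.5 CPM in lung control libraries and 56.4 and 62.6 CPM in lung Vps34-deficient libraries. Its log2 fold change upon Vps34 loss was 0.09 ± 0.0875 (SE) in spleen and 0.07 ± 0.104 in lung, and none of the 6 tested Pik3c3 peaks changed with genotype, which does not test the deletion, since the accessibility of a promoter can remain when an exon is removed. All 6 Treg and T cell markers had promoter peaks, which summed to between 222 and 301 CPM over the libraries. Of the markers of other cells, 1 of 4 myeloid genes had a promoter peak (summed 0.643 to 1.75 CPM) and 1 of 4 B cell genes did (13.01 to 19.6 CPM, all Pax5). The corresponding sums were 8.10 to 15.2 CPM for the 2 of 4 CD8 T and NK cell genes, 29.4 to 38.9 CPM for the 3 of 4 endothelial genes and 25.7 to 34.3 CPM for the 3 of 4 lung epithelial genes, which were Epcam (17.2 to 24.0 CPM), Cdh1 (6.005 to 9.57 CPM) and Nkx2-1 (0.347 to 2.15 CPM) but not Sftpc. All 5 effector Treg genes had promoter peaks, which summed to 173 to 195 CPM in spleen control, 164 to 180 CPM in spleen Vps34-deficient, 185 to 240 CPM in lung control and 153 to 171 CPM in lung Vps34-deficient libraries. The difference in lung moved with the lung genotype comparisons below, and its part in them was not tested. Promoter peaks of all 4 resting Treg genes summed to 158 to 183 CPM in lung control and 148 to 188 CPM in lung Vps34-deficient libraries, which overlapped.

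Promoters of the autophagy genes were open in every library. The most accessible promoter peak of each gene had a mean between 8.31 CPM at Gabarap and 114 CPM at Wipi1, which encodes a reader of phosphatidylinositol 3-phosphate, with a median over the 34 genes of 39.3 CPM. Wipi1 measured 105 and 118 CPM in spleen control libraries, 115, 107, 110.5 and 105 CPM in spleen Vps34-deficient libraries, 112 and 128 CPM in lung control libraries and 116 and 122 CPM in lung Vps34-deficient libraries. Gabarap, which encodes an ATG8 family protein, measured 8.10 and 8.52 CPM, then 7.24, 9.09, 8.86 and 9.22 CPM in the 2 spleen groups, and 8.29 and 8.69 CPM, then 8.40 and 6.65 CPM in the 2 lung groups. The genotypes overlapped at both promoters in either tissue. Median CPM of the promoters was lowest for the 5 ATG8 family genes at 19.9 CPM and was 36.0 CPM for the 5 ULK1 complex genes, 36.8 CPM for the 7 lipid transfer, Atg9a and lipid-binding genes, 44.4 CPM for the 11 conjugation genes and 47.7 CPM for the 4 cargo receptor genes.

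**Figure D1:**
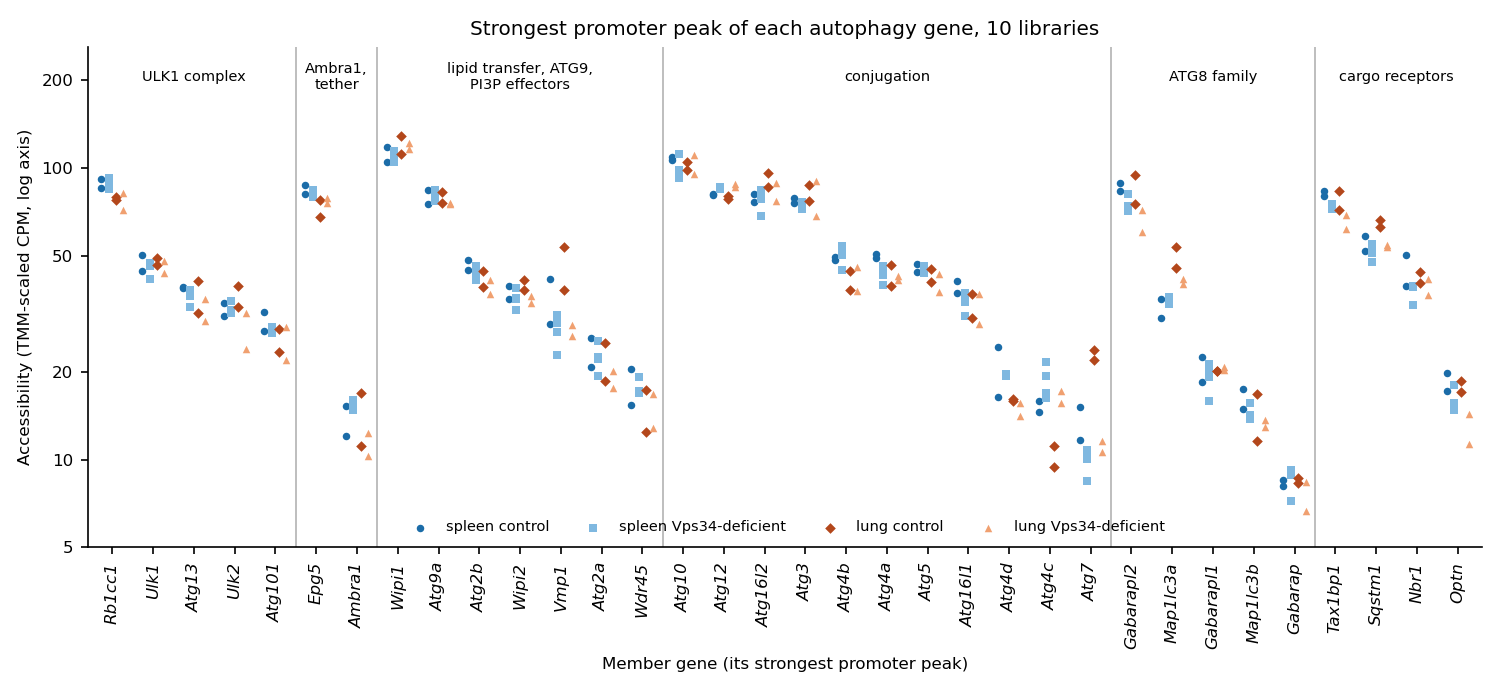
Accessibility in CPM (logarithmic axis) of the most accessible promoter peak of each of the 34 autophagy genes, with 1 point for each of the 10 libraries, coloured by tissue and genotype and ordered by role. Points of the 4 groups lie close together at nearly every gene, from a mean of 8.31 CPM at Gabarap to 114 CPM at Wipi1.

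Among these 34 promoters, the quasi-likelihood test of edgeR, at a Benjamini-Hochberg adjusted p under 0.05 over all tested peaks and an absolute log2 fold change above 0.5, called 0 peaks in spleen (4 at an unadjusted p under 0.05, 0 with DESeq2) and 3 in lung, 1 higher and 2 lower. These are 8.82% of the 34 in lung, where 2.79% of promoter peaks of any coding gene were called (0.566% in spleen). The lung promoter peak that rose was that of Atg4c, which encodes a protease that trims ATG8 proteins. It measured 15.9 and 14.6 CPM in spleen control libraries, 21.7, 17.0, 16.3 and 19.3 CPM in spleen Vps34-deficient libraries, 11.1 and 9.42 CPM in lung control libraries and 15.6 and 17.2 CPM in lung Vps34-deficient libraries. The 2 genotypes did not overlap in either tissue, and the log2 fold change was 0.68 ± 0.195 in lung (adjusted p = 0.0411) and 0.28 ± 0.156 in spleen (adjusted p = 0.448). The lung call was lost in 8 of 21 alternatives, among them without either lung Vps34-deficient library, without lung control replicate 2 and without any single one of 3 of the spleen Vps34-deficient libraries. Both promoter peaks that fell in lung, of Atg7 and Vmp1, lay at transcript starts inside those genes and are described with them below. Fold changes across the 34 promoters ranged from −0.44 to 0.28 in spleen, where 26 were negative, and from −1.04 to 0.68 in lung, where 28 were negative. Their median was −0.064 in spleen and −0.099 in lung. Promoter peaks of any coding gene also had medians below 0, of −0.014 in spleen and −0.057 in lung.

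Promoter peaks were divided by the kind of start they lay at. Of the 59 promoter peaks, 39 lay within 1 kb of the 5′ end of a gene (31 genes, median 27.3 CPM), and of these 0 changed in spleen (3 at an unadjusted p under 0.05, 0 with DESeq2), 1 changed in lung (Atg4c) and 1 changed over both tissues (Atg9a). The 20 promoter peaks at internal starts more than 1 kb from the 5′ end (12 genes, median 3.37 CPM) included 2 that fell in spleen, 3 that fell in lung and 4 that fell over both tissues. Of the promoter peaks of any coding gene 0.566% were called in spleen, 2.79% in lung and 2.93% over both tissues, in either direction and without regard to the kind of start. The peak of Atg9a, which encodes the membrane protein of vesicles that seed the autophagosome, is on chromosome 1 (75192553-75192788), also lies near the start of the neighbouring gene Ankzf1, and fell by 0.60 ± 0.172 over both tissues (adjusted p = 0.0268).

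More of the called autophagy peaks fell than rose upon loss of Vps34 in each comparison. In spleen 0 autophagy peaks rose (11 at an unadjusted p under 0.05, 0 with DESeq2) and 8 fell in 7 genes, where 0.441% of all tested peaks rose and 1.02% fell. In lung 3 rose and 20 fell in 11 genes, where 1.22% of all tested peaks rose and 3.74% fell, and fitted over both tissues 3 rose and 23 fell in 13 genes, where 3.52% rose and 4.06% fell. Read against those shares, 8 peaks are 3.42% of 234, 20 are 8.55% and 23 are 9.83%, and several of the peaks share a gene, 9 of the lung peaks belonging to Vmp1 alone. The median log2 fold change of the 234 peaks was −0.04 in spleen, −0.12 in lung and −0.07 over both tissues, against 0.05, 0.02 and 0.04 over all tested peaks. At least 1 peak changed in any of these 3 comparisons in 15 of the 34 genes, and in 19 none did. The counts depended on single libraries: 8 peaks fell in lung without lung control replicate 2, 9 without lung Vps34-deficient replicate 1 and 13 without lung Vps34-deficient replicate 2, and 14 rose without lung control replicate 1 but 0 or 1 without any other lung library. In spleen 2 fell without control replicate 1, 3 without control replicate 2 and 5 without Vps34-deficient replicate 4, and over both tissues 14 fell without lung Vps34-deficient replicate 1 and 13 without lung control replicate 2. Over both tissues 1 rose without lung Vps34-deficient replicate 2, and 5 did without lung control replicate 1.

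Promoter peaks of the autophagy genes were called in 2 of 59 cases in spleen (0.566% of promoter peaks of any coding gene were), in 4 of 59 in lung (2.79%) and in 5 of 59 over both tissues (2.93%). For the 175 other autophagy peaks the counts were 6 in spleen (1.7% of all other peaks), 19 in lung (5.53%) and 21 over both tissues (8.77%). The spleen and lung comparisons share no library, but both come from a single fit that estimates the spread over all libraries. The labels do not say whether the tissues came from the same animals. The peaks are set beside each other with that limit, and the 2 sets of calls are not independent. Of the 20 peaks that fell in lung, 19 also had negative values in spleen (median log2 fold change −0.46), and 5 also fell in spleen, which is 25% of the lung list and 62.5% of the 8 peaks of the spleen list. Among all tested peaks that fell in lung, 93.1% were negative and 21.7% fell in spleen, so the autophagy peaks were close to the whole set in this respect.

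**Figure D2:**
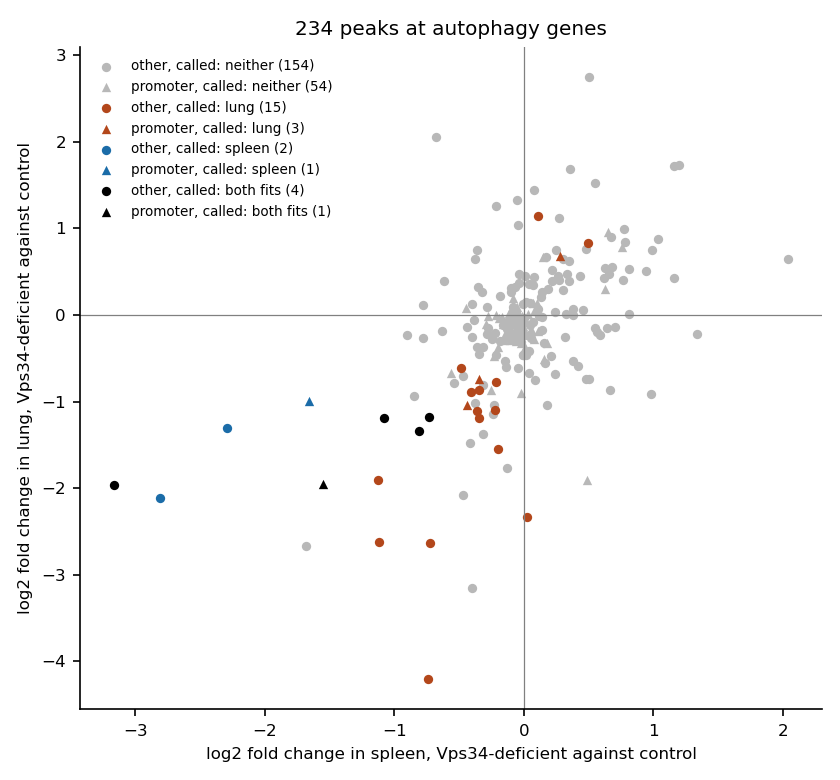
Log2 fold change of Vps34-deficient over control libraries in spleen (horizontal axis) and lung (vertical axis) for the 234 autophagy peaks, each a point, with promoter peaks as triangles and peaks called in spleen, lung or both fits coloured. The peaks that fell in lung lie below −0.5 on the vertical axis, and 19 of 20 lie left of 0 on the horizontal axis.

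Of the 18 peaks of the ULK1 kinase complex, 0 changed in spleen (2 at an unadjusted p under 0.05, 0 with DESeq2) and 1 fell in lung (5.56% against 3.74% of all tested peaks), a peak in an intron of Ulk1, the gene of the kinase that starts autophagy, on chromosome 5 (110807900-110808690), 1407 bp from the 5′ end. It measured 35.9 and 41.3 CPM in spleen control libraries, 26.5, 25.7, 29.5 and 28.2 CPM in spleen Vps34-deficient libraries, 55.3 and 75.2 CPM in lung control libraries and 48.7 and 36.5 CPM in lung Vps34-deficient libraries. In each tissue every Vps34-deficient library lay below every control library. The log2 fold change was −0.49 ± 0.126 in spleen (adjusted p = 0.0505), −0.62 ± 0.148 in lung (adjusted p = 0.0143) and −0.54 ± 0.0956 over both (adjusted p = 0.000606). The last value lies close to the fold threshold of 0.5. It came under it when any of lung control replicate 2, lung Vps34-deficient replicate 2 or spleen control replicate 2 was left out. The same happened under a scaling that follows peak level (loess offsets).

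Of the 27 peaks of the regulator and tether genes, 1 fell in spleen and in lung (3.70% against 1.02% and 3.74% of all tested peaks). Over both tissues it fell (3.70% against 4.06%) and 2 others rose (7.41% against 3.52%). Epg5 encodes the tether that joins autophagosomes to lysosomes, and a peak in one of its introns on chromosome 18 (78021159-78021752) measured 6.29 and 7.69 CPM in spleen control libraries, 0.552, 0.606, 0.695 and 1.28 CPM in spleen Vps34-deficient libraries, 11.3 and 13.2 CPM in lung control libraries and 2.16 and 4.29 CPM in lung Vps34-deficient libraries. All Vps34-deficient libraries lay below all control libraries of either tissue. Its log2 fold change was −3.16 ± 0.302 in spleen (adjusted p = 2.15e-06) and −1.96 ± 0.334 in lung (adjusted p = 0.000848), and both calls held under every alternative run. Ambra1, which encodes a scaffold that links initiation to the Vps34 complex, held 2 intronic peaks of low level on chromosome 2 that rose over both tissues. The peak at 91866837-91867046 measured 0.517 and 0.275 CPM, then 0.828, 1.33, 0.695 and 0.993 CPM in spleen control and Vps34-deficient libraries, and 1.53 and 0.883 CPM, then 3.16 and 4.72 CPM in lung. Genotypes were apart in both tissues, with a log2 fold change over both of 1.47 ± 0.375 (adjusted p = 0.0144), and the peak at 91789694-91789973 had 1.46 ± 0.456 (adjusted p = 0.0440). The most that any library held at these 2 peaks was 44 counts.

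The conjugation genes held 99 peaks, of which 4 fell in spleen (4.04% against 1.02% of all tested peaks), 7 fell and 3 rose in lung (7.07% and 3.03% against 3.74% and 1.22%), and 8 fell and 1 rose over both tissues (8.08% and 1.01% against 4.06% and 3.52%). Atg10, which encodes the enzyme that passes ATG12 to ATG5, held 3 of the peaks that fell in lung, all in introns far from its start. The strongest, chr13:91091384-91092157, lies 131811 bp from the 5′ end and measured 25.7 and 35.7 CPM in spleen control libraries, 14.3, 14.6, 14.8 and 13.9 CPM in spleen Vps34-deficient libraries, 50.6 and 57.4 CPM in lung control libraries and 24.9 and 22.5 CPM in lung Vps34-deficient libraries. The level was higher in lung than in spleen within each genotype, and within each tissue the genotypes did not overlap. The log2 fold change was −1.08 ± 0.128 in spleen (adjusted p = 2.42e-05), −1.19 ± 0.153 in lung (adjusted p = 4.53e-05) and −1.13 ± 0.0982 over both (adjusted p = 3.76e-08), and it was called under every alternative run. A second intronic peak, chr13:91038030-91038413, measured 11.5 and 12.2 CPM, then 6.49, 8.36, 5.99 and 7.73 CPM in spleen, and 20.9 and 24.1 CPM, then 9.48 and 10.5 CPM in lung. It fell by 0.73 ± 0.175 in spleen (adjusted p = 0.0322) and by 1.18 ± 0.209 in lung (adjusted p = 0.00128). The spleen call was lost without either control library and without any single one of 3 of the 4 Vps34-deficient spleen libraries.

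Atg7 encodes the E1-like enzyme that activates both ATG12 and the ATG8 proteins, and its peaks moved in both directions. Near an internal transcript start, the peak chr6:114656849-114657285, 13752 bp from the 5′ end, measured 11.7 and 15.1 CPM, then 10.1, 10.3, 8.42 and 10.8 CPM in spleen control and Vps34-deficient libraries, and 22.03 and 23.7 CPM, then 10.7 and 11.6 CPM in lung. It fell by 1.04 ± 0.199 in lung (adjusted p = 0.00238) and had a log2 fold change of −0.44 ± 0.166 in spleen (adjusted p = 0.201). The lung call was lost without lung Vps34-deficient replicate 1. The next peak, chr6:114657830-114658137, 14733 bp from the 5′ end and over an untranslated exon, measured 4.83 and 5.22 CPM, then 2.62, 1.09, 1.39 and 1.84 CPM in spleen, and 6.76 and 10.6 CPM, then 2.00 and 2.57 CPM in lung. It fell by 1.55 ± 0.298 in spleen (adjusted p = 0.00648, lost without either spleen control library) and by 1.95 ± 0.370 in lung (adjusted p = 0.00231, lost without lung control replicate 2 or Vps34-deficient replicate 1). In contrast, the peak at the 5′ end of Atg7 (chr6:114643463-114644925, named after its values were seen) measured 5.95 and 7.55 CPM, then 5.11, 6.30, 6.69 and 6.38 CPM in spleen, and 5.45 and 8.39 CPM, then 5.99 and 7.72 CPM in lung. Genotypes overlapped there in both tissues, with log2 fold changes of −0.13 and −0.04. A further intronic peak, chr6:114777652-114778400, rose by 0.83 ± 0.202 in lung (adjusted p = 0.0153), from 9.38 and 14.4 CPM to 22.6 and 20.2 CPM.

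Among the other conjugation genes, Atg12, Atg5 and Atg4a changed at weak peaks, 2 of them at Atg5, and Atg4c at the promoter described above. Atg3, Atg4b, Atg4d, Atg16l1 and Atg16l2 had no peak called upon Vps34 loss. The peak upstream of Atg12, the ubiquitin-like modifier gene, on chromosome 18 (46747777-46748042), inside the neighbouring gene Ap3s1, measured 3.05 and 2.36 CPM in lung control libraries and 6.16 and 5.58 CPM in lung Vps34-deficient libraries, and rose by 1.14 ± 0.2998 (adjusted p = 0.0262). In spleen it measured 6.03 and 4.39 CPM in control libraries and between 5.24 and 6.17 CPM in Vps34-deficient libraries, which overlapped. Downstream of Atg5, whose product carries ATG12, the peak on chromosome 10 (44368749-44369003) measured 1.72 and 1.65 CPM, then 0.138, 0.242, 0.261 and 0.284 CPM in spleen, and 1.31 and 2.80 CPM, then 0.333 and 0.643 CPM in lung. It fell by 2.81 ± 0.545 in spleen (adjusted p = 0.00680, lost without either spleen control library) and by 2.53 ± 0.426 over both tissues (adjusted p = 0.000368). A second peak 3′ of Atg5 (44367162-44367417) measured 2.62 and 4.71 CPM in lung control libraries and 0 and 0.429 CPM in lung Vps34-deficient libraries, the latter at most 4 counts, and was called lower, with the call lost without lung control replicate 2 or Vps34-deficient replicate 1. An intronic peak of Atg4a, a further ATG8 protease gene, on chromosome X (140984711-140985141) measured 5.89 and 3.68 CPM in lung control libraries and 2.16 and 0.214 CPM in lung Vps34-deficient libraries, and fell by 1.903 ± 0.526 (adjusted p = 0.0341).

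**Figure D3:**
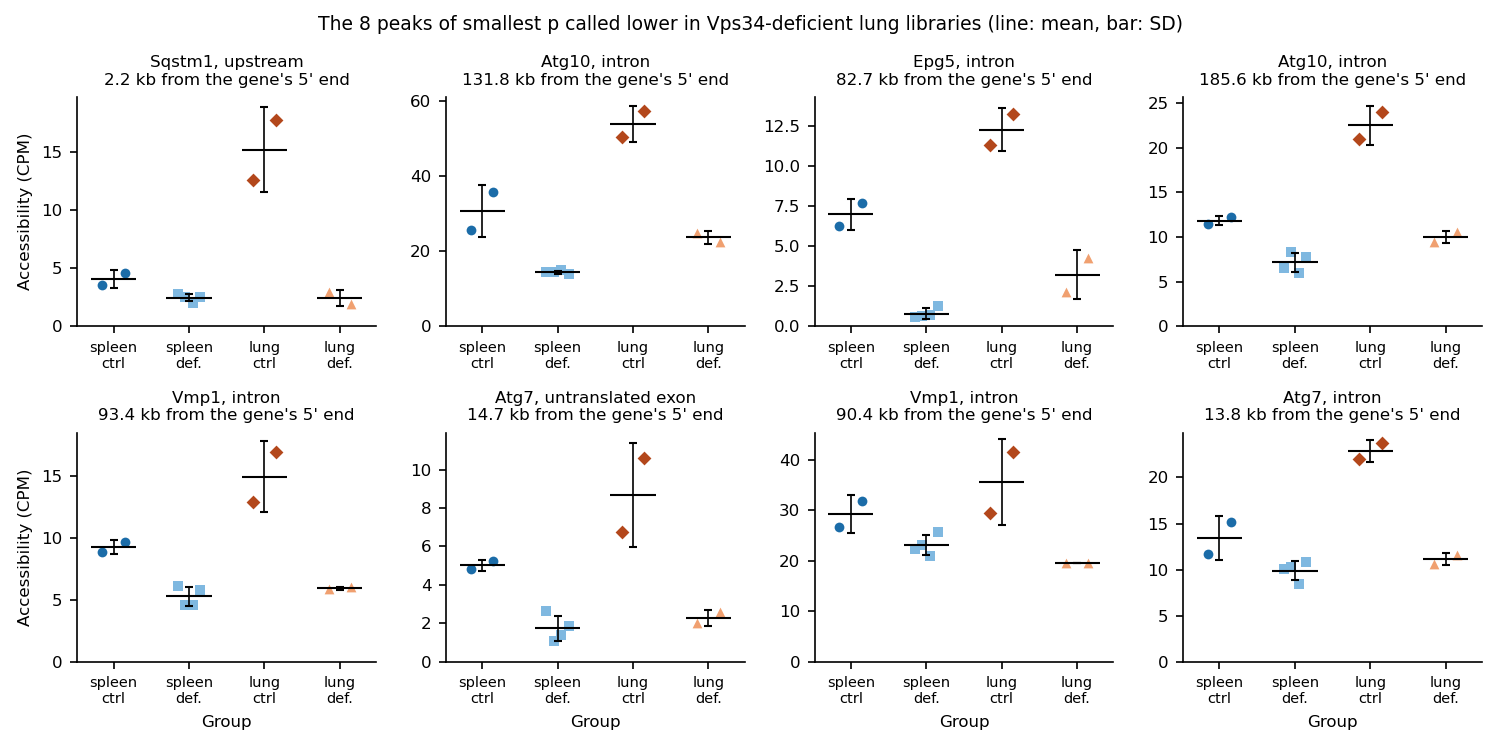
CPM (vertical axes, from 0) in each of the 10 libraries, by group, at the 8 autophagy peaks of smallest p among those called lower in Vps34-deficient (def.) lung libraries, with 1 point for each library, lines for group means and bars for SD. At the Atg10 peak at 131811 bp the lung control libraries lie at 50.6 and 57.4 CPM and the lung Vps34-deficient libraries at 24.9 and 22.5 CPM.

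Among the 47 peaks of lipid transfer, Atg9a and lipid-binding genes, the 9 that fell in lung (19.1% against 3.74% of all tested peaks) were all in Vmp1, and 1 of these also fell in spleen (2.13% against 1.02%). Vmp1 encodes a lipid scramblase of the endoplasmic reticulum needed for the autophagosome membrane to form, and the 3′ end of the gene overlaps Mir21a (chr11:86584067-86584158), the gene of miR-21, a microRNA abundant in activated T cells. Its mature 5p arm, from RefSeq, is shown with the seed (bases 2 to 8) in capitals because its gene lies among the Vmp1 peaks.
mmu-miR-21a-5p: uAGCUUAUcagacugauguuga

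Vmp1 had 19 peaks, of which 18 had a negative log2 fold change in lung, and 11 lay within 15 kb of Mir21a, where 6 fell in lung and 5 fell over both tissues. Of the 8 peaks further away, 3 fell in lung. The intronic peak chr11:86590128-86590394 lies 5970 bp from Mir21a and 93442 bp from the 5′ end of Vmp1. It measured 8.83 and 9.61 CPM in spleen control libraries, 6.071, 4.607, 4.603 and 5.817 CPM in spleen Vps34-deficient libraries, 12.9 and 16.9 CPM in lung control libraries and 5.822 and 6.005 CPM in lung Vps34-deficient libraries. Genotypes did not overlap in either tissue. It fell by 0.81 ± 0.196 in spleen (adjusted p = 0.0332, lost without either control library or any single one of 3 of the 4 Vps34-deficient libraries) and by 1.34 ± 0.240 in lung (adjusted p = 0.00135), where the call held under every alternative run.

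The most accessible promoter peak of Vmp1 was not at its 5′ end but at an internal transcript start near Mir21a (chr11:86586769-86587614). It measured 29.2 and 41.6 CPM, then 22.9, 29.4, 27.4 and 31.4 CPM in spleen control and Vps34-deficient libraries, and 38.2 and 53.8 CPM, then 26.4 and 28.9 CPM in lung. It fell by 0.74 ± 0.176 in lung (adjusted p = 0.0133) and had a log2 fold change of −0.34 ± 0.146 in spleen (adjusted p = 0.269), where the genotypes overlapped. In contrast, the peak at the 5′ end (chr11:86683436-86684368, named after its values were seen) measured 14.0 and 15.1 CPM, then 12.0, 14.2, 15.6 and 15.3 CPM in spleen, and 13.5 and 15.02 CPM, then 13.6 and 9.01 CPM in lung. Its log2 fold changes were −0.02 ± 0.172 and −0.33 ± 0.212 (adjusted p in lung = 0.404). The number of Vmp1 peaks that fell in lung was 1 without lung control replicate 2, which was the highest lung library at the peaks above, 3 without either lung Vps34-deficient library, 11 without lung control replicate 1 and 5 with the lung libraries fitted alone.

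**Figure D4:**
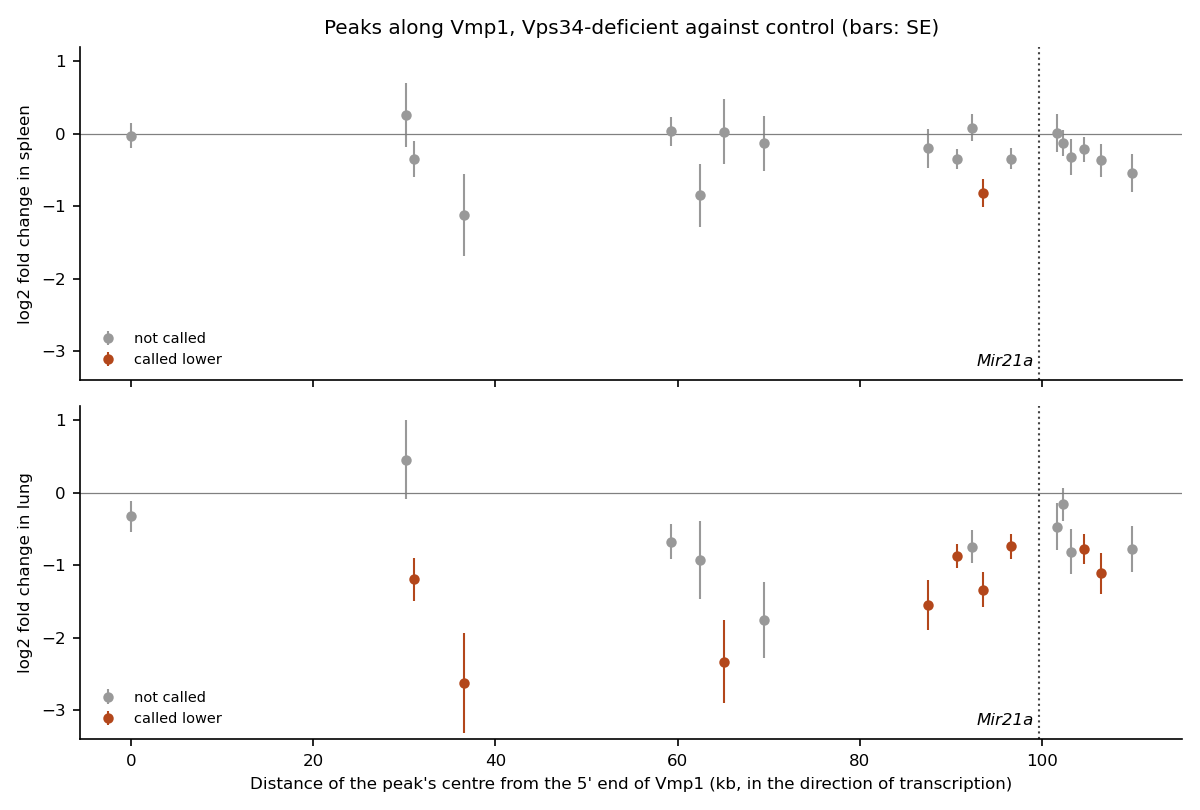
Log2 fold change of Vps34-deficient over control libraries (vertical axes; bars, SE) at the 19 Vmp1 peaks against distance of the peak centre from the 5′ end of the gene in kb (horizontal axis), in spleen (top) and lung (bottom), with Mir21a marked by a dotted line. In lung 9 peaks are called lower, 6 of them within 15 kb of Mir21a, and in spleen 1 is, while the peak at the 5′ end lies at −0.33 in lung and −0.02 in spleen.

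Of the 24 peaks of the ATG8 family, 0 were called in lung (4 at an unadjusted p under 0.05, 0 with DESeq2), where 1.22% of all tested peaks rose and 3.74% fell. In spleen 1 fell (4.17% against 1.02%), downstream of Map1lc3a, which encodes the ATG8 protein LC3A, on chromosome 2 (155285687-155286116), inside the neighbouring gene Pigu. It measured 3.02 and 2.75 CPM in control libraries and 0.552, 0.849, 0.608 and 0.284 CPM in Vps34-deficient libraries of the spleen, and 2.62 and 4.86 CPM, then 1.16 and 1.93 CPM in lung. Genotypes were apart in both tissues, and the log2 fold change over both was −1.88 ± 0.319 (adjusted p = 0.000402). The spleen call was lost without spleen control replicate 1. At the promoter of Gabarapl2, a further ATG8 family gene, the values were 83.3 and 88.6 CPM, then 81.4, 74.0, 73.0 and 71.5 CPM in spleen, and 75.0 and 94.8 CPM, then 60.4 and 71.8 CPM in lung. All Vps34-deficient libraries lay below the controls of their tissue, and the log2 fold change of −0.27 ± 0.0731 (adjusted p = 0.0216) was below the fold threshold.

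Among the 19 peaks of cargo receptor genes, 1 fell in spleen (5.26%), 2 fell in lung (10.5%) and 4 fell over both tissues (21.1%), where 1.02%, 3.74% and 4.06% of all tested peaks did. Of the 2 called in lung, the deeper was upstream of Sqstm1, which encodes p62, the receptor for ubiquitin-marked cargo, at chr11:50213005-50213329, 2178 bp from the 5′ end and within an intron of the neighbouring gene Mgat4b. It measured 3.53 and 4.601 CPM in spleen control libraries, 2.76, 2.55, 2.00 and 2.55 CPM in spleen Vps34-deficient libraries, 12.7 and 17.8 CPM in lung control libraries and 2.91 and 1.93 CPM in lung Vps34-deficient libraries. The lung control libraries stood above all 8 others, and the lung Vps34-deficient libraries lay to either side of the spleen libraries of the same genotype. It fell by 2.64 ± 0.305 in lung (adjusted p = 1.39e-05, under every alternative run) and had a log2 fold change of −0.72 ± 0.254 in spleen (adjusted p = 0.162). The difference between these effects was −1.92 ± 0.402 and did not pass the test (adjusted p = 0.208, with a range over the alternatives of 0.0603 to 0.978).

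Optn encodes optineurin, a receptor for damaged mitochondria and microbes. Its peak at an internal start on chromosome 2 (5036414-5036970) measured 3.79 and 4.12 CPM, then 1.79, 1.70, 0.955 and 0.568 CPM in spleen, and 2.18 and 6.33 CPM, then 1.66 and 2.79 CPM in lung. Genotypes were apart in spleen and overlapped in lung. It fell by 1.66 ± 0.396 in spleen (adjusted p = 0.0314), a call lost without either control library and without Vps34-deficient replicate 4. A second Optn peak (5061369-5061987) fell in lung by 1.10 ± 0.245 (adjusted p = 0.00846), from 16.8 and 14.7 CPM to 5.99 and 8.79 CPM. Upstream of Nbr1, a further ubiquitin receptor gene, a weak peak at chr11:101543521-101543840, inside a neighbouring gene, fell by 2.03 ± 0.510 over both tissues (adjusted p = 0.0128), with 1.55 to 2.65 CPM over the 4 control libraries and 0 to 1.14 CPM over the 6 Vps34-deficient libraries.

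The autophagy peaks that fell held the motif of AP-1, the family of Fos, Jun and BATF factors, more often than the other autophagy peaks. The motif was written TGANTCA, on both strands, and sought in 300 bases around the centre of each peak. For a shorter peak this window extends beyond its ends, so a match can lie beside the peak. The motif was present in 10 of the 23 peaks that fell over both tissues (43.5%), in 9 of the 20 that fell in lung (45%), and in 32 of all 234 autophagy peaks (13.7%), while of the 154 autophagy peaks outside promoters that were not called over both tissues 17 held it (11%). In all tested peaks the motif was present in 13%, in those that fell over both tissues in 29.8% and in those that rose over both tissues in 13.1%, so the pattern is shared with the series as a whole. The GC content gives no large contrast, with a median of 48.7% for the autophagy peaks that fell over both tissues and 49.8% for all autophagy peaks. Of the 10 peaks, 5 belong to Vmp1 and so are not independent of each other. Of the matches, those in Atg10, Nbr1 and further Vmp1 peaks are shown with 15 bases to either side, all outside exons, from GRCm38 + strand: the Atg10 stretch of 37 bases is chr13:91038260-91038296, that of Nbr1 is chr11:101543655-101543691, and those of Vmp1 start at 86577409, 86587226, 86593233 and 86652650 of chromosome 11.
Atg10: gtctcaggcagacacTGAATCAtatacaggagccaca
Nbr1: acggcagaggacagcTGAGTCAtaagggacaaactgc
Vmp1 86577409: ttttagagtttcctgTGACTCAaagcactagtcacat
Vmp1 86587226: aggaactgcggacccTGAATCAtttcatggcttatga
Vmp1 86593233: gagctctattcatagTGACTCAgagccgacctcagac
Vmp1 86652650: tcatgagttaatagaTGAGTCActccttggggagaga

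In the RefSeq promoter windows, 250 bases before to 50 after a gene start, 35 windows of 29 of the 34 genes were present and TGANTCA was in 0 of them, against 7.81% of all 32851 windows. The motif CACGTG, the core of the sites bound by TFEB and its relatives, which drive lysosome and autophagy genes, was in 3 windows (Atg3, Atg5 and Atg7; 8.57% against 7.15% of all windows), and its extended form TCACGTGA, which overlaps it, in 1 (Atg3; 2.86% against 0.974%). The NRF1 motif GCATGCGC was in 3 (Atg10, Tax1bp1 and Wipi2; 8.57% against 2.71%), the ETS motif CCGGAAG in 4 (Atg101, Atg3, Gabarapl2 and Vmp1; 11.4% against 8.86%) and the FOXO motif GTAAACA in 0 (against 3.65%). The 300-base windows of the 59 promoter peaks gave other shares. There TGANTCA was in 7 (11.9% against 6.47% of promoter peaks of any coding gene), GTAAACA in 4 (6.78% against 2.49%) and GCATGCGC in 1 (1.69% against 2.66%). CACGTG was in 4 (6.78% against 8.04%), TCACGTGA in 2 (3.39% against 1.04%) and CCGGAAG in 9 (15.3% against 11.4%).

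Of the pathway genes outside the 34, the 7 genes of the Vps34 complexes had 42 tested peaks, of which 1 fell in spleen (2.38%), 3 fell in lung (7.14%) and 4 fell over both tissues (9.52%), where 1.02%, 3.74% and 4.06% of all tested peaks did. A peak in Uvrag, the subunit of the endosomal complex, on chromosome 7 (99049867-99050300) fell by 1.74 ± 0.328 in spleen (adjusted p = 0.00527) and by 2.03 ± 0.395 in lung (adjusted p = 0.00293). A peak in Atg14, the subunit of the autophagy complex, on chromosome 14 (47533571-47534250) fell by 0.86 ± 0.214 in lung (adjusted p = 0.0187). Of 39 peaks of mTOR, TSC and AMPK genes, 2 fell in lung (both in Rptor, 5.13% against the 3.74% of all tested peaks) and 1 fell over both tissues (2.56% against 4.06%). Of 46 peaks of fusion and adaptor genes 1 fell in lung (Tecpr1, 2.17%), and of 60 peaks of transcription factor genes 1 rose over both tissues (Tfe3, 1.67% against 3.52%).

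In lung compared with spleen over both genotypes, 29 peaks of the 234 rose and 10 fell, in 18 genes, which is 12.4% and 4.27% of them, where 18.4% of all tested peaks rose and 6.51% fell. Without lung control replicate 1 the number that fell was 6. Of the promoter peaks 2 of 59 changed (9.48% of promoter peaks of any coding gene did), and both fell, in Atg16l2, which encodes a relative of the ATG16L1 scaffold, and in Atg7. Among the 34 most accessible promoters 0 changed (7 at an unadjusted p under 0.05, 0 with DESeq2), with log2 fold changes between −0.36 and 0.45. Of the 175 other peaks 37 changed, 21.1%, where 28.9% of all other peaks did. Each role had members that rose: 3 peaks of 18 in the ULK1 complex, 15 of 99 in conjugation, 4 of 47 in lipid transfer, 1 of 24 in the ATG8 family, 2 of 19 in cargo receptors and 4 of 27 in the regulator and tether genes.

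The largest rise among those with the smallest p was upstream of Atg13, which encodes the adaptor of the ULK1 complex, on chromosome 2 (91717664-91717873) inside the neighbouring gene Harbi1, at 0.259 and 0.412 CPM, then 0.552, 0.606, 0.695 and 0.851 CPM in spleen, and 2.40 and 1.47 CPM, then 2.99 and 4.08 CPM in lung. All lung libraries lay above all spleen libraries (log2 fold change 2.42 ± 0.346, adjusted p = 7.61e-06). At Epg5 the intronic peak on chromosome 18 (77945077-77945289) measured 43.9 and 64.8 CPM, then 83.3, 76.9, 50.6 and 82.0 CPM in spleen, and 155 and 95.4 CPM, then 164 and 178 CPM in lung, again without overlap (1.22 ± 0.121, adjusted p = 4.54e-08). At Ulk2, the gene of the second ULK kinase, the values of a peak on chromosome 11 (61801502-61801711) were 1.72 and 2.06 CPM, then 3.73, 2.85, 1.91 and 3.55 CPM in spleen, and 5.67 and 4.27 CPM, then 6.99 and 6.65 CPM in lung (1.28 ± 0.217, adjusted p = 7.04e-05). Lung exceeded spleen in every library at these 3 peaks, and also at a peak just past the 3′ end of Atg7 on chromosome 6 (114861124-114861533), inside the neighbouring gene Vgll4, with 1.24 to 3.02 CPM over the spleen libraries and 3.65 to 8.54 CPM over the lung libraries (1.36 ± 0.242, adjusted p = 0.000118). The Atg10 and Ulk1 peaks that fell upon Vps34 loss were higher in lung, by 0.77 ± 0.0996 and 0.69 ± 0.0959. In the opposite direction, 4 of the 10 peaks lower in lung were in Atg10, such as chr13:91178441-91179185, which measured 14.3 and 13.6 CPM, then 12.0, 12.7, 11.8 and 13.5 CPM in spleen, and 6.54 and 7.95 CPM, then 5.99 and 7.51 CPM in lung (−0.91 ± 0.142, adjusted p = 2.33e-05).

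Peak width moved with the rise in lung. Of the 29 autophagy peaks higher in lung, 16 were narrower than 220 bp, a limit chosen after the values were seen, although only 34 of the 234 peaks were so narrow. In all tested peaks, 58.2% of the 22481 narrow ones and 6.4% of the wider ones were higher in lung, and among the autophagy peaks 16 of 34 and 13 of 200. The summed level of the 16 narrow peaks was 53.7 and 78.0 CPM in spleen control libraries, 102.9, 95.1, 64.5 and 104.7 CPM in spleen Vps34-deficient libraries, 199.6 and 121.2 CPM in lung control libraries and 212.7 and 232.7 CPM in lung Vps34-deficient libraries. Most of each sum comes from the Epg5 peak at 77945077-77945289, and the median level of the 16 was 1.51 CPM. Lung control replicate 2 was the lowest lung library at 12 of the 16 narrow peaks and at 1 of the 13 wider ones. The part of peak width in the tissue difference was not tested.

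**Figure D5:**
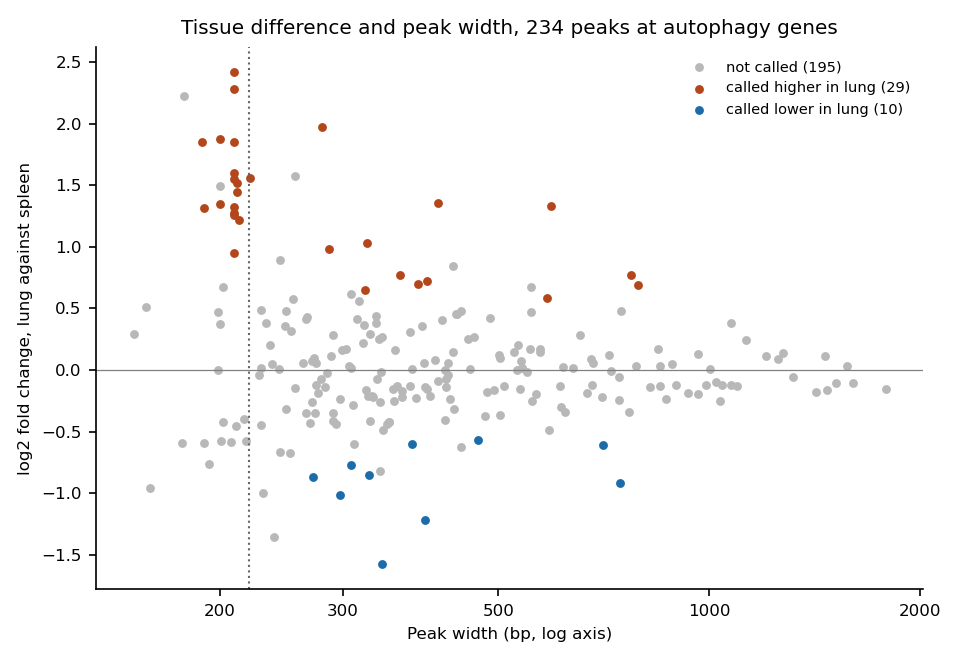
Log2 fold change of lung over spleen libraries (vertical axis) against peak width in bp (horizontal axis, logarithmic) for the 234 autophagy peaks, with called peaks coloured and a dotted line at 220 bp. Of the 29 peaks higher in lung, 16 lie below 220 bp, and none of the 10 lower in lung does.

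Whether Vps34 loss acted differently in the tissues was tested by the interaction of tissue and genotype. It called 0 autophagy peaks (24 at an unadjusted p under 0.05, 0 with DESeq2), where 0% of all tested peaks were called in either direction, so the larger number of peaks that fell in lung is not shown to be a difference between the tissues at this depth and number of libraries. The Epg5 intronic peak that fell in both tissues had an interaction of 1.204 ± 0.461 (adjusted p = 0.563), the Vmp1 peak beside Mir21a −0.53 (adjusted p = 0.761) and the Atg10 peak −0.10 (adjusted p = 0.947).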

How the data were processed

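ATAC-seq of sorted Tregs was performed by the authors, whose deposited table holds whole-number counts of reads per peak for 10 libraries, not normalized. The submitters' processing notes name cutadapt 1.9, Picard 1.65, SAMtools, MACS2 2.1.0.20150603 and bedtools with mm10 (GRCm38), whereas the study's methods name another trimmer and mm9. Peak positions fitted GRCm38, since peaks covered 51.3% of 21938 starts of coding genes and, once the starts were shifted, 2.82% and 2.67%. Per the methods, duplicates were removed, reads were shifted for transposase insertion and nucleosome-free reads were kept, and peaks seen in at least 50% of replicates were merged at 100 bp. Between 91.5% and 96.5% of counts per library were even numbers, so mates of a pair were counted separately and the counts are not independent molecules. Spleen numbers (2 control, 4 Vps34-deficient) follow the labels, and the methods give them the other way round.

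Counts were analysed with edgeR 4.0.16 (R 4.3.3) and limma 3.58.1: filterByExpr, trimmed-mean scaling, and a quasi-likelihood fit of 4 groups, or of tissue plus genotype for the effects over both, with Benjamini-Hochberg adjustment over 97109 peaks. Peaks were called at an adjusted p under 0.05 and an absolute log2 fold change above 0.5. Named peaks are the most accessible promoter peak of each gene and at most 10 called peaks per comparison by smallest p, and further peaks were named after their values were seen. The genes and lists were chosen with earlier results of these data known. Alternatives were DESeq2 1.42.0, other scalings, filters and peak assignments, a replicate block, a chromosome Y covariate, halved counts, each tissue alone, and each library left out. The fits were tested on simulated data. The total counts of 9405823 to 22439699 per library limit weak peaks most. The sequence of 1 peak is not reported here.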

Additional observations from a re-analysis of the deposited data

Results flagged for a closer look

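The most accessible promoter peak of Wdr45, which encodes a phosphatidylinositol 3-phosphate reader, on chromosome X (7714111-7714852) measured 19.19 CPM in spleen Vps34-deficient replicate 3 and 17.1, 17.2 and 16.9 CPM in the other 3 libraries of that group. The highest library stood further from the others, relative to the range of the group, than the limit for 4 samples allows. It was the only one of 56 groups of values tested to do so, and chance flags about 1 in 20.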

How the results depend on the processing

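For the peaks chosen by the naming rule, the only ones whose fold changes were recomputed, no direction changed (952 values on the side of the threshold reported, 53 no longer past it, 4 newly past it, 0 reversed), while counts of autophagy peaks moved more. In spleen 0 peaks rose, with 1 when spleen libraries were fitted alone and 1 when peaks within 50 kb were assigned (0 to 1 when a library was left out), and 8 fell, with 5 at a mean count of at least 50 and 2 to 9 when a library was left out. In lung 3 rose, with 5 by DESeq2, 5 with halved counts, 0 with lung libraries alone, 7 within 50 kb and 0 to 14 with a library left out, and 20 fell, with 12 in lung libraries alone and 8 to 22 with a library left out. Over both tissues 3 rose, with 6 under the chromosome Y covariate, 1 at a mean count of at least 50, 5 with no fold threshold, 9 within 50 kb and 1 to 5 with a library left out, and 23 fell, with 15 at a mean count of at least 50 and 13 to 25 with a library left out. Between tissues 29 rose, with 11 at a mean count of at least 50, 50 within 50 kb and 21 to 32 with a library left out, and 10 fell, with 3 at a mean count of at least 50, 16 with no fold threshold, 19 within 50 kb and 6 to 13 with a library left out. The interaction stayed at 0 (0 to 0 with a library left out). The cause of these shifts was not tested, other than that a stricter filter or fewer libraries leaves less to test and a wider window takes in more peaks. A lung or spleen control library or a lung Vps34-deficient library left out leaves a single one in its arm, assumed to vary like the others.

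Same-numbered libraries did not deviate together, with correlations between −0.0978 and 0.0146 over all peaks and between −0.0768 and 0.0388 over autosomal peaks, so the numbers were not taken to pair them. With the replicate block 2 autophagy peaks fell in spleen, 1 rose and 16 fell in lung, 4 rose and 21 fell over both tissues, and 26 rose and 6 fell between tissues. Among the named peaks, the spleen calls at Atg10 91038030, Atg5 44368749, Atg7 114657830, Map1lc3a 155285687, Optn 5036414 and Vmp1 86590128 and the lung call at Atg4c did not pass with the block.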
